A study of Homo sapiens with 10 samples.

Results

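HEK 293T cells lacking PUS7 and carrying FLAG-tagged PUS7 were compared with HEK 293T cells lacking PUS7 that carried no tagged protein. The comparison took 6 of the 10 iCLIP libraries of the series, 3 per group, chosen by their cell line and genotype labels. HEK 293T is a transformed human embryonic kidney line, and both groups carried the PUS7 knockout, labelled PUS7KO. The FLAG-PUS7 group, labelled PUS7KO+FlagPUS7, differed from the knockout group by the tagged enzyme alone, as far as the labels say. Cells were at passages 20 to 25, and 2 plates of 15 cm were used for each replicate. In iCLIP, living cells are irradiated with ultraviolet light, which links RNA to the proteins that touch it. Here the light was of 254 nm at 200 mJ/cm2. Lysates of both groups then went through RNase I and anti-FLAG beads, so that the knockout libraries are a mock pull-down. Whether the knockout is a single clone, what drives the tagged PUS7, and whether replicates were grown apart are not known from the sources used here. P-values therefore measure only the spread between these libraries, which may be technical. The level of PUS7 and marker genes of the cell line were not analysed here.

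Each library had a table of 631 tRNA rows, 1 for each listed gene copy, and all 631 rows are described. The deposited numbers are level codes and not read counts. They were read only as detected, meaning at least 1 read, or not detected, so that no amount, fold change or depth is given for a tRNA. A symbol of the RefSeq gene table was found for 463 rows, of which 408 are tRNA genes, here called gene rows. The FLAG-PUS7 libraries had also 3 peak lists, 1 per library. No peak list of a knockout library was used here.

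PUS7 is a pseudouridine synthase, an enzyme that turns uridine in RNA into its isomer pseudouridine without a guide RNA. It recognises a short sequence, written TNTAA or TNTAG in DNA letters with N for any base, and modifies the T between N and A. Its known tRNA sites lie in the D arm of several cytosolic tRNAs and in the anticodon of the tyrosine tRNA precursor. tRNA genes, Y RNA genes and vault RNA genes are all transcribed by RNA polymerase III. A tRNA isotype is the amino acid a tRNA carries, an anticodon family is an isotype with 1 anticodon, and an isodecoder is a set of gene copies with the same mature sequence.

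The sequences below show where the motif of the enzyme lies in genes on which results turn. They were read from RefSeq promoter windows of GRCh38.p14, which held 10 tRNA genes whole and with a strand told by the anticodon, together with the first 50 of the 98 bases of VTRNA1-1. Capitals mark TNTAA or TNTAG, and positions are counted from 1 at the 5′ end of the gene.
TRG-CCC2-2, glycine, chr16:636736-636806, minus strand, with a peak in all 3 lists: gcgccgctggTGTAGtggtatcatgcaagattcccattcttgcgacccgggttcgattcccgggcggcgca
TRH-GTG1-3 and TRH-GTG1-9, histidine, chr1:148281365-148281436 and chr15:45201151-45201222, both plus strand, detected in all 6 libraries: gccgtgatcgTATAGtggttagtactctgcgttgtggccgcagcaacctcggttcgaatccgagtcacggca
TRP-TGG3-2 and TRP-TGG3-5, proline, chr14:20684016-20684087 and chr16:3188094-3188165, both plus strand, detected in 1 and 0 knockout libraries: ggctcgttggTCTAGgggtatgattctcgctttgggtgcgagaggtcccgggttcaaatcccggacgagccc
TRA-AGC2-2, alanine, chr6:28863685-28863756, minus strand, detected in 0 knockout libraries: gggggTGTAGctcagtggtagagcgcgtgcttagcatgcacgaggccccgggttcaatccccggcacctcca
TRT-TGT6-1, threonine, chr5:181191687-181191758, minus strand, detected in 0 knockout libraries: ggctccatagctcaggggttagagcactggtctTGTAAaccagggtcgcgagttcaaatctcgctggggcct
TRF-GAA1-5, phenylalanine, chr13:94549650-94549722, minus strand, detected in 1 knockout library: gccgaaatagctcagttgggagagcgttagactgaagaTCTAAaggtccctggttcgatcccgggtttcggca
TRI-AAT8-1, isoleucine, chr6:27668583-27668656, plus strand, without the motif and with a peak in 2 lists: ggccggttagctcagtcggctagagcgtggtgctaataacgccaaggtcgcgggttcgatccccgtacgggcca
VTRNA1-1, a vault RNA, chr5:140711276-140711325, plus strand, with a peak in all 3 lists: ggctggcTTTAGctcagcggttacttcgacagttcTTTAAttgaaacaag

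The glycine, histidine and proline genes held the motif at bases 11 to 15, with its middle base at 13. The alanine gene held it at bases 6 to 10, with its middle base at 8, ahead of the D arm. In the threonine gene the motif began within the anticodon at base 34, and in the phenylalanine gene just after it at base 39. The arginine gene TRR-ACG2-1, not printed, held it at base 48. The motif stood in 9 of these 10 tRNA genes on the gene strand, or 90%. It stood in 30.8% of 35116 stretches of 72 bases from all RefSeq promoter windows on either strand. The 10 genes were set by which windows were at hand and are no sample of all tRNA genes. A match is a description of letters and not a site of modification.

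FLAG-PUS7 libraries detected nearly all of the 408 gene rows, while knockout libraries detected a smaller part, whose size depended strongly on the isotype. Of all 631 rows, FLAG-PUS7 libraries detected 75.8%, 74.5% and 72.6%. The 3 FLAG-PUS7 libraries detected 478, 470 and 458 rows. The 3 knockout libraries detected 232, 139 and 133 rows. The groups did not overlap, and the first knockout library stood apart from the other two. The mean difference was 300.7 rows (p = 0.1 by an exact two-sided permutation test, the lowest value that the 20 assignments of 3 against 3 libraries can give), or 332.7 rows without the first knockout library. This test can therefore not pass 0.05 with 3 libraries per group. Of the 408 gene rows, the FLAG-PUS7 libraries detected 97.8%, 97.1% and 97.3%, and the knockout libraries 54.2%, 32.6% and 30.4%. The difference was 58.3 percentage points (p = 0.1 by the same exact two-sided test), or 65.9 points without the first knockout library. How many rows are detected also moves with sequencing depth, which is unknown, so that recovered RNA and depth cannot be told apart.

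Row by row, nearly everything seen in the mock pull-down was also seen with FLAG-PUS7. Of all rows, 498 were detected in at least 1 FLAG-PUS7 library, 267 in at least 1 knockout library and 133 in none. In all 3 FLAG-PUS7 libraries and 0 knockout libraries there were 177 of 631 rows, or 28.1%, a count that became 248 without the first knockout library. A further 101 rows were in all 3 FLAG-PUS7 libraries and 1 knockout library, 89 in 2 knockout libraries, and 74 in all 6. The 3 FLAG-PUS7 libraries shared most of their rows: 458 were in the first and second, or 95.8% and 97.4% of these. Knockout libraries 2 and 3 shared 77 rows, or 55.4% and 57.9% of these. Each of them shared 117 rows with the first, or 84.2% and 88.0% of their own rows. The rows of the mock libraries thus overlapped less than those of the FLAG-PUS7 libraries. Such shares rise with the number of rows that each library detects, which was far higher with FLAG-PUS7. They therefore do not compare how well the libraries of the groups repeat each other.

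The isotypes fell along a wide range in the mock pull-down, from Asp, with every gene row detected, to Cys, with almost none. All 13 Asp gene rows were detected in all 6 libraries. Of these rows, 11 are copies of 1 isodecoder, TRD-GTC2, whose reads cannot be told apart by sequence. Other isotypes also hold large isodecoders, such as TRH-GTG1 of His with 9 copies and TRP-AGG2 of Pro with 8. The rows of an isotype are therefore not independent members. Of the 29 Cys gene rows, FLAG-PUS7 libraries detected 28, 28 and 27, and knockout libraries 1, 0 and 0. Asp thus gave no difference between groups, while Cys gave a difference of 94.3 points with no overlap. In every other isotype too the lowest FLAG-PUS7 library lay above the highest knockout library. Pro, with 20 gene rows, had all 20 in each FLAG-PUS7 library and 2, 1 and 0 in the knockout libraries, a difference of 95 points. Phe, with 11 gene rows, had 11, 11 and 10 against 1, 1 and 0. Thr, with 20, had all 20 against 3, 2 and 2. These 4 isotypes had the smallest knockout shares. At the other end, Glu, with 14 gene rows, had all 14 against 13, 7 and 10, and Asn, with 15, had all 15 against 12, 9 and 10. Gly, with 27, had all 27 against 23, 16 and 15. The knockout libraries differed widely from each other for Val, with 17, 2 and 10 of 27 gene rows, and for Ala, with 11, 3 and 0 of 31. For these 2 isotypes the size of the difference rests on which knockout library is taken.

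**Figure D1:**
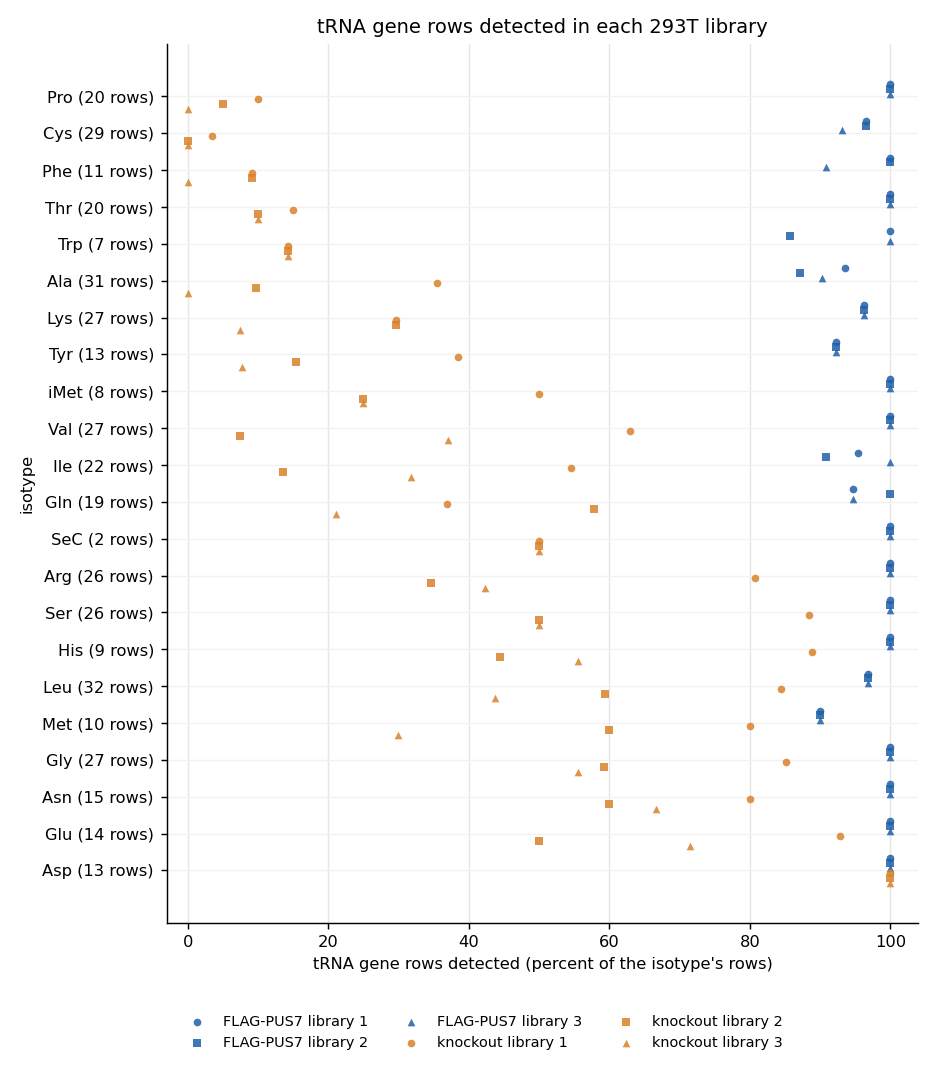
Share of each isotype's gene rows detected (x axis, percent) in each of the 6 libraries, 1 point per library, for 22 isotypes ordered by the difference between group means. The FLAG-PUS7 points lie near 100 throughout, while the knockout points run from 0 to 10 for Pro to 100 for Asp.

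Groups of isotypes were counted over all their rows and set beside the 28.1% of all rows found in 3 FLAG-PUS7 and 0 knockout libraries. These lists were chosen with results of these data known. The rows of Ala, Cys and Val, the isotypes whose fragments the study follows, had 105, 100 and 96 of 125 detected with FLAG-PUS7 and 32, 6 and 11 in the knockout. The groups did not overlap, and 60 rows, or 48%, were in all FLAG-PUS7 and no knockout libraries. By isotype these were 26 of 37 Cys rows, 22 of 51 Ala rows and 12 of 37 Val rows. The Val share of 32.4% lay near the 28.1% of all rows. Asp, Glu, Gln, Gly and His, isotypes among which pseudouridine in the D arm is known, had 103, 99 and 97 of 127 rows with FLAG-PUS7 and 67, 52 and 49 in the knockout. The groups did not overlap, and 19 rows, or 14.96%, were in all FLAG-PUS7 and no knockout libraries. Over all rows, the lists stood apart in the mock pull-down more than with FLAG-PUS7. Their mean FLAG-PUS7 shares, 80.3% ± 3.61 and 78.5% ± 2.41 (SD, n = 3), lay within 1 SD of each other. Among gene rows alone this did not hold. There FLAG-PUS7 libraries detected 96.6%, 94.3% and 94.3% of 87 rows of the first list. Of 82 rows of the second list they detected 98.8%, 100% and 98.8%, higher and with no overlap. Shares this near 100% leave little room for the lists to differ.

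Tyr, whose precursor carries a known site in the anticodon, had 12 of 17 rows in each FLAG-PUS7 library and 5, 2 and 1 in the knockout libraries, and 5 rows, or 29.4%, were in all FLAG-PUS7 and no knockout libraries. The families with introns in their genes (Leu-CAA, Ile-TAT, Arg-TCT and Tyr) had 29 of 36 rows in each FLAG-PUS7 library and 14, 6 and 7 in the knockout libraries, with 13 rows, or 36.1%, of that kind. Initiator Met, the tRNA that starts translation, had 9 of 10 rows in each FLAG-PUS7 library and 4, 2 and 2 in the knockout libraries, with 3 rows, or 30.0%. The Tyr and initiator Met shares lay near that of all rows. The isotypes Ser, Leu and SeC, which have a long variable arm, had 62, 61 and 61 of 72 rows with FLAG-PUS7 and 51, 33 and 28 in the knockout. Only 8 of these rows, or 11.1%, were in all FLAG-PUS7 and no knockout libraries, the lowest share among the lists of cytosolic isotypes. Rows with an nm or nmt prefix were nearly absent from both groups, with 1, 2 and 3 of 41 against 0, 1 and 1. Of the 11 undetermined and suppressor rows, 2 were in each FLAG-PUS7 library and 0 in each knockout library.

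At the level of anticodon families, 46 of the 56 families with a detected row, or 82.1%, had all 3 FLAG-PUS7 shares above all 3 knockout shares, and 0 had the reverse. Without the first knockout library this count was 52. Among families of at least 4 rows, Pro-CGG had the largest difference, with 4 of 4 rows in each FLAG-PUS7 library and 0 in each knockout library. The smaller families Gly-CAC, Ser-ACT and Sup-TTA, of 2, 1 and 1 rows, had the same difference of 100 points. After Pro-CGG, Thr-TGT followed with all 6 rows against 0, 0 and 1, a difference of 94.4 points, and Pro-TGG with all 7 rows against 2, 0 and 0, or 90.5 points. Pro-AGG, with 9 of 10 rows against 0, 1 and 0, and Thr-AGT, with 10, 9 and 10 of 10 rows against 1 in each, both differed by 86.7 points. Ile-TAT, an intron-containing family, had all 5 rows against 2, 0 and 0, also 86.7 points. The remaining large differences were those of Cys-GCA at 80.6 points, Ala-CGC at 80.0, Arg-TCT at 77.8 and Trp-CCA at 70.8. All of them had no overlap between groups.

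Those families of at least 4 rows with the smallest difference were of different kinds. Leu-TAG had 3 of 4 rows with FLAG-PUS7 and 3, 2 and 3 in the knockout, and Glu-CTC had 8 of 10 rows against 8, 6 and 7. Ser-TGA had all 4 rows against 4, 3 and 3, and Val-TAC had 5 of 7 rows against 5, 1 and 4. In these 4 families the first knockout library held as many rows as the FLAG-PUS7 libraries, so that the groups met. Gly-TCC, with 9 of 9 rows against 8, 8 and 7, Leu-CAA, with 6 of 8 against 5, 3 and 5, and Asp-GTC, with 15 of 16 against 13 in each, did not overlap but differed by 14.8, 20.8 and 12.5 points. The Asp-GTC difference came from rows without a RefSeq tRNA gene. Und-NNN and nmt-Gln-TTG each had 1 of 9 rows with FLAG-PUS7 and 0 in the knockout, and nm-Tyr-GTA had 0, 1 and 1 of 16 rows in both groups. Families of 1 isotype could differ: among gene rows, Glu-CTC differed by 12.5 points and Glu-TTC by 50.0 points, and Lys-TTT by 92.3 points and Lys-CTT by 57.1 points. Lys-TTT had all 13 gene rows with FLAG-PUS7 and 1, 2 and 0 in the knockout, while Lys-CTT had 13 of 14 against 7, 6 and 2.

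Few rows went against the general pattern. The 6 gene rows that no FLAG-PUS7 library detected were TRA-AGC10-1 (chr6:26687257-26687329), TRC-GCA15-1 (chr7:149584725-149584796), TRK-CTT9-1 (chr5:26198430-26198502), TRL-CAA5-1 (chr11:9275243-9275316), TRM-CAT7-1 (chr6:57842214-57842286) and TRY-ATA1-1 (chr2:218245826-218245918). None of these was detected in a knockout library either. A further 9 gene rows were in 1 or 2 FLAG-PUS7 libraries, among them TRA-AGC12-1 and TRA-AGC12-3 on chromosome 6 and TRI-GAT1-2 and TRI-GAT1-3 on chromosome X. TRW-CCA5-1 (chr7:99469684-99469755) was the only gene row found in a knockout library but not in all FLAG-PUS7 libraries, with 2 FLAG-PUS7 libraries and 1 knockout library. The only other rows of this kind were 2 of nm-Tyr-GTA, each in 1 library of either group. Of the 43 rows without an nm or nmt prefix that RefSeq calls tRNA pseudogenes, 7, or 16.3%, were in all 3 FLAG-PUS7 and 0 knockout libraries, a lower share than the 28.1% of all rows. With 1 prefixed row, the 8 rows of this kind were NMTRQ-TTG9-1, TRA-TGC9-1, TRE-TTC6-1, TRK-CTT12-1, TRK-TTT14-1, TRS-ACT1-1, TRUND-NNN3-1 and TRV-CAC11-2. TRE-TTC6-1, for one, lies at chr1:148308922-148308993, and TRK-TTT14-1 at chr14:73588825-73588897. Reads of near-identical copies can be assigned to the wrong copy, so that a row of few reads is uncertain.

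Whether a row was found in the mock pull-down went with a property of the tables themselves, the width of the text behind its level codes. The table of an H9 knockout library, in which every row stood at its lowest level, sorted the rows into 5 classes by this width. Classes are numbered from the narrowest, and the sources used here do not state what set the width. In the simulated data made to test the reading of levels, it was the number of digits of a row's largest count over all libraries. By that rule a wider class would hold rows of higher counts, and class and detection would not be independent. Whether the deposited tables follow that rule was not tested. The reading of detection itself also used the class, which set how far the lowest run of levels reached. That run held 2 levels in each FLAG-PUS7 library and 4 in each knockout library. Class and detection were therefore not obtained independently. Class 1 had 248 rows, of which FLAG-PUS7 libraries detected 98, 90 and 77 and knockout libraries 3, 2 and 2. Class 2 had 130 rows, with 127, 127 and 128 against 24, 19 and 11. All 166 rows of class 3 and all 86 of class 4 were in every FLAG-PUS7 library, and knockout libraries detected 121, 60 and 58 of the first and 83, 57 and 61 of the second. The single row of class 5, Glu-TTC-5-1, was in all 6 libraries. The knockout share thus went up with each class from 1 to 4 in all 3 libraries. Cys rows lay in class 1 (24 rows) and class 2 (13), and Asp rows mostly in class 4 (11 of 16).

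**Figure D2:**
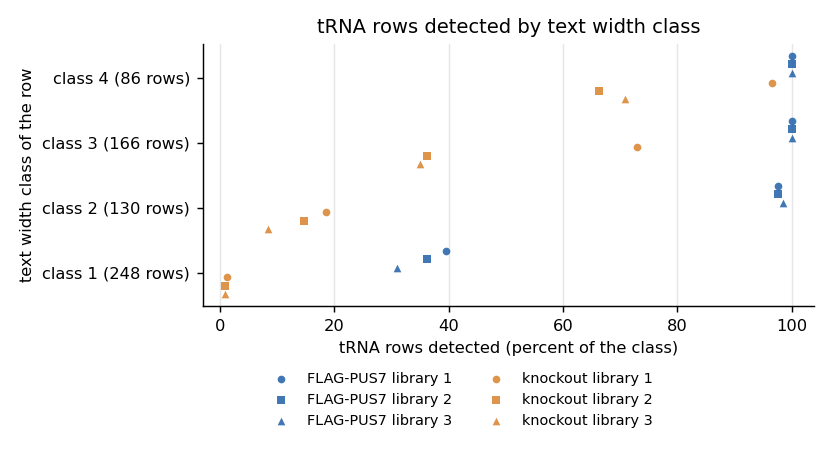
Share of tRNA rows detected (x axis, percent) in each of the 6 libraries, 1 point per library, for the 4 text width classes with more than 1 row. Knockout points lie near 1 in class 1 and between 66.3 and 96.5 in class 4, while FLAG-PUS7 points reach 100 in classes 3 and 4.

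Isotypes were also set side by side within a class. In class 3, knockout libraries detected 18.2%, 18.2% and 9.1% of 11 Thr rows but 84.6%, 46.2% and 69.2% of 13 Glu rows and 91.7%, 50.0% and 41.7% of 12 Gly rows. In the same class they detected 68.4%, 5.3% and 31.6% of 19 Val rows. The highest Thr share lay below the lowest Glu and Gly shares, whereas Val overlapped all of them. In class 2, knockout libraries detected 0%, 13.3% and 0% of 15 Lys rows and 10.0%, 5.0% and 0% of 20 Pro rows, but 46.2%, 61.5% and 30.8% of 13 Gln rows. The Gln shares lay above those of Lys and Pro in every library. Other isotypes overlapped in this class, where knockout libraries detected 12.5%, 0% and 12.5% of 8 Thr rows, 0%, 25% and 0% of 4 Gly rows and 50.0%, 0% and 0% of 2 Glu rows. The 2 Asp rows of class 2 were in no knockout library, and the 13 Cys rows were at 7.7%, 0% and 0%. In class 4, all 11 Asp rows were in all 3 knockout libraries, against 88.9%, 44.4% and 55.6% of 9 His rows. This sets few sequences side by side, since TRD-GTC2 has 11 copies among the Asp rows and TRH-GTG1 has 9 among the His rows. Within a class some isotypes thus stood apart and others overlapped, and Cys, with no row in class 3 or 4, could not be set beside the Asp rows found in the mock libraries. Between the lists, knockout libraries in class 2 detected 11.5%, 0% and 3.8% of 26 Ala, Cys and Val rows and 31.8%, 40.9% and 18.2% of 22 Asp, Glu, Gln, Gly and His rows, with no overlap. This separation rested on Gln, which gave 6, 8 and 4 of the 7, 9 and 4 rows detected in the second list. In class 3, where the first list holds no Cys row, knockout libraries detected 75.9%, 13.8% and 20.7% of 29 rows against 80.0%, 56.7% and 53.3% of 30. The first list was lower in each library there, while the groups of 3 values overlapped.

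Gene copies with the same mature sequence were mostly detected together with FLAG-PUS7, and less often so in the mock pull-down. The numbers in the gene names put 534 rows into 368 isodecoders. FLAG-PUS7 libraries detected 283, 278 and 272 isodecoders, and knockout libraries 127, 86 and 75. The groups did not overlap, and the difference was 181.7 isodecoders (p = 0.1 by the exact two-sided permutation test, again its minimum). Of 59 isodecoders with several copies, FLAG-PUS7 libraries detected all copies of 55, 52 and 53, only some copies of 3, 5 and 3, and no copy of 1, 2 and 3. Knockout libraries detected all copies of 24, 6 and 5, only some of 17, 24 and 21, and no copy of 18, 29 and 33. Partial detection was thus more frequent in each knockout library, where far fewer rows were detected, than in any FLAG-PUS7 library.

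Among isodecoders with many copies, TRD-GTC2, an Asp isodecoder, had all 11 copies in all 6 libraries. TRP-AGG2, a Pro isodecoder, had all 8 copies in each FLAG-PUS7 library and 0, 1 and 0 in the knockout libraries. TRK-TTT3, a Lys isodecoder, had 5 of 5 against 0 in each, and the Cys isodecoders TRC-GCA2 and TRC-GCA9 each had 4 of 4 against 0 in each. TRX-CAT1, the initiator Met isodecoder, had 8 of 8 against 4, 2 and 2. TRL-CAG1, a Leu isodecoder, had 7 of 7 against 7, 5 and 0, a wide spread between mock libraries. TRH-GTG1 had 9 of 9 against 8, 4 and 5. The printed histidine copies TRH-GTG1-3 and TRH-GTG1-9 were in all 6 libraries, while TRH-GTG1-4, a copy of the same isodecoder, was in 0 knockout libraries. Likewise the printed proline copy TRP-TGG3-2 was in the first knockout library and TRP-TGG3-5, of identical sequence, in none. Reads from identical mature copies cannot be told apart by sequence, so that detection of a single copy depends on how the authors placed such reads, of which the sources used here say nothing.

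**Figure D3:**
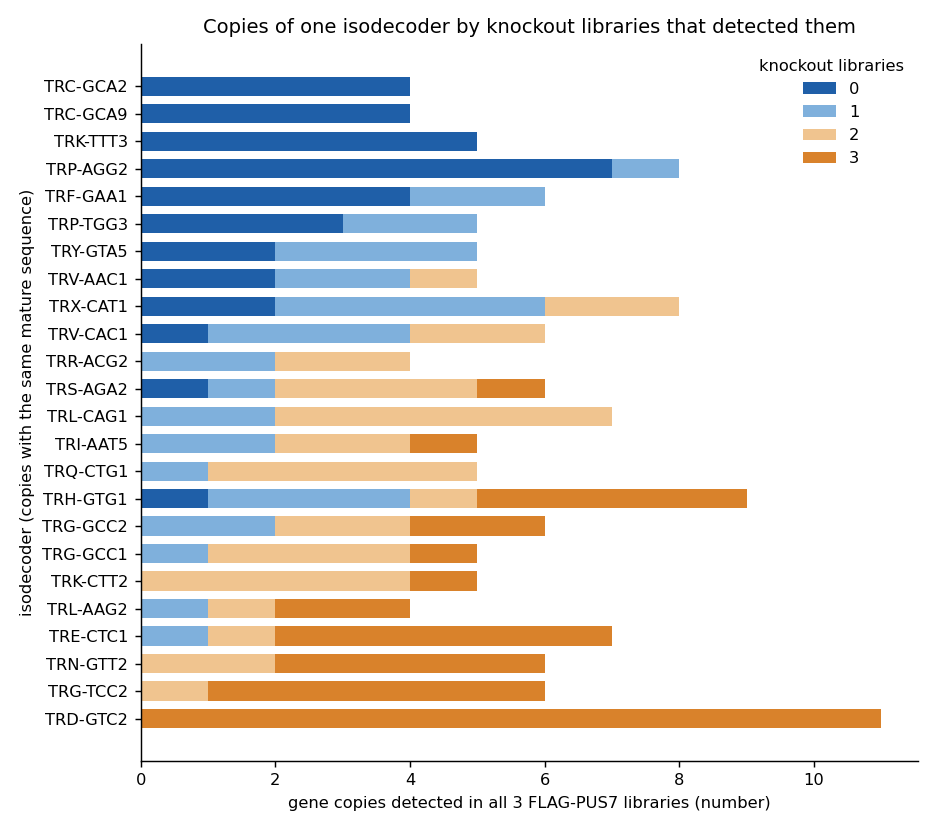
Number of gene copies (x axis) detected in all 3 FLAG-PUS7 libraries, for isodecoders with at least 4 copies, 1 bar each, split by colour into copies detected in 0, 1, 2 or 3 knockout libraries. TRC-GCA2, TRC-GCA9 and TRK-TTT3 have no copy in a knockout library, and all 11 copies of TRD-GTC2 are in all 3.

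The peak lists showed where reads of the FLAG-PUS7 libraries piled up along the genome, in bins of 200 bases on hg38. The 3 lists held 120, 85 and 39 peaks, with lowest signals of 9, 13 and 22. Signal is the authors' value per bin, without a stated scaling. Peaks that overlapped on 1 strand by at least 1 base were merged into 128 loci, of which 38 were in all 3 lists, 40 in 2 and 50 in 1. The short lists were nearly contained in the long ones: 100% of the third list and 90.6% of the second had a counterpart in another list, against 65.0% of the first. Loci found in 1 list had a median signal of 14.5, those in 2 lists 18.8, and those in all 3 lists 56.0. The 38 recurring loci carried 78.5%, 87.5% and 99.2% of the signal of the lists. Over these loci the signals of the lists ranked alike, with Spearman correlations of 0.84, 0.77 and 0.81, given as a description over loci of the same 3 libraries. Without the third list, 77 loci were in both others, so that the count of 38 was set mainly by the third list. The authors' second count, of an origin that the sources used here leave unstated, was above 0 in 27, 26 and 9 peaks and in no peak reached the signal.

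tRNA genes formed the largest class of loci. Genes of every class were assigned to loci by position alone, and the strand of a peak was not compared with that of the gene. Of the 128 loci, 53 overlapped a tRNA gene, 15 lay within 100 bases of one, and 1 overlapped the tRNA pseudogene TRE-CTC9-1. Of the 53, 19 were in all 3 lists, or 35.8%, 19 in 2 and 15 in 1. Over all 128 loci, 38 were in all 3 lists. By chromosome, 18 of the 53 loci at tRNA genes were on chromosome 6 and 11 on chromosome 1, where large tRNA gene clusters lie. All 4 Y RNA genes and all 3 vault RNA loci were in all 3 lists. Of 9 spliceosomal RNA loci, 0 were in all 3, with 3 in 2 lists and 6 in the first list only. Of 12 loci in protein-coding genes, 1 was in all 3 lists, and of 5 mitochondrial loci, 0 were. The third list held 39 peaks, none with a signal below 22, and so limited which loci could be in all 3. The lists are marked by the authors as made without tRNA, without a statement of what was removed in the sources used here.

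**Figure D4:**
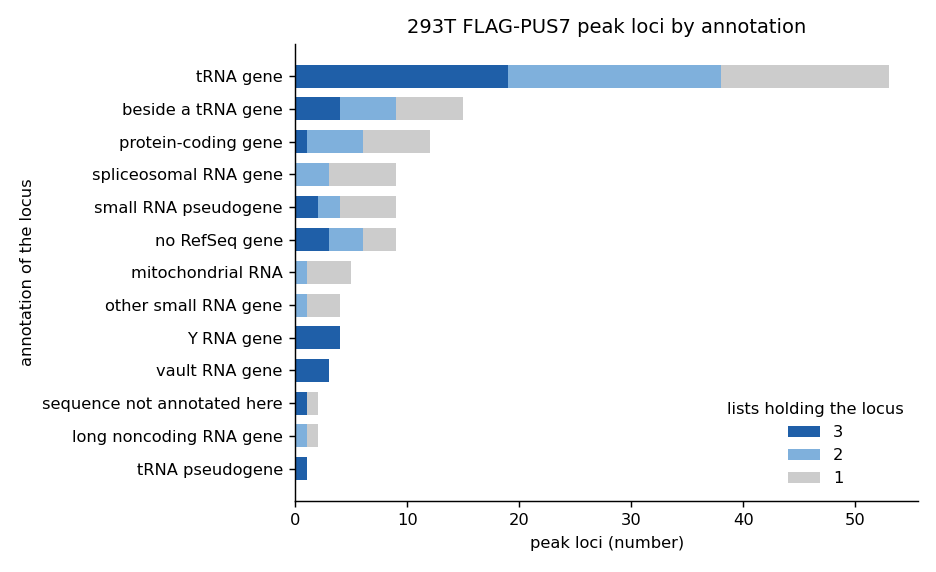
Number of merged peak loci (x axis) by the RefSeq annotation at their position on either strand, 1 bar per annotation. Bars are split by colour into loci held by 3, 2 or 1 of the FLAG-PUS7 peak lists. The 53 loci at tRNA genes form the longest bar, and all Y RNA and vault RNA loci are held by 3 lists.

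Shares of the signal of the 38 recurring loci were taken within a list, with the signal summed over the bins of a peak, so that a peak of 2 bins counts both. By this share a valine tRNA gene with a peak of 2 bins came first. TRV-CAC3-1 (peak chr19:4724401-4724800) took 18.1%, 24.5% and 26.7% of it in the 3 lists, a mean of 23.1% ± 4.48 (SD, n = 3). Per bin it was the highest locus of lists 2 and 3, and in list 1 its signal of 634 lay below the 879 of RNY5 and the 785 of TRG-CCC2-2. The copies of the glycine isodecoder TRG-CCC2, TRG-CCC2-1 (peak chr2:70248801-70249200) and TRG-CCC2-2 (peak chr16:636601-636800), took 9.55% ± 1.39 and 9.53% ± 1.57 (SD, n = 3). These 2 shares are alike only as sums, since the peak at TRG-CCC2-1 spans 2 bins and that at TRG-CCC2-2 spans 1. Per bin, the signal was 388.5, 315 and 233 at TRG-CCC2-1 and 785, 608 and 472 at TRG-CCC2-2, lower at the former in every list. TRL-CAG2-1, a leucine gene, took 4.76%, 5.25% and 4.64%, and TRN-GTT9-1, an asparagine gene, took 2.97%, 3.35% and 3.71%. A locus on chromosome 2 without a RefSeq gene (chr2:13924001-13924200) took 5.23%, 8.98% and 7.33%, and a further one on chromosome X (chrX:47802601-47802800) took 2.28%, 2.19% and 2.49%. Neither had a name in the gene table used here. Signals of the lists are on no common scale, which is why shares within a list are given.

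The non-tRNA transcripts of RNA polymerase III were uneven among themselves. RNY5, a Y RNA bound by the Ro protein, took 12.5%, 5.93% and 4.21% of the signal of the recurring loci, the widest spread relative to its mean among the 10 leading loci. RNY3 took 1.19% ± 0.151, RNY1 0.877% ± 0.115 and RNY4 0.598% ± 0.206 (SD, n = 3). Each of these 3 Y RNAs lay below RNY5 in every list. Among the vault RNAs, which are part of the vault particle, VTRNA1-2 took 7.01%, 5.19% and 6.60%, VTRNA1-1 took 3.91%, 2.58% and 3.30%, and VTRNA1-3 took 0.648% ± 0.146 (SD, n = 3). This order of the vault RNAs was the same in all 3 lists. VTRNA1-1, printed above, held the motif at bases 8 and 36 of its first 50 bases. The Y RNA pseudogenes RNY4P5 and RNY3P1 were also in all 3 lists, the former with signals of 28, 20 and 30 and the latter with 17, 45 and 22. Beside the median signals of all peaks in the lists, 20, 28 and 40, these values lay on both sides. RMRP, the RNA of RNase MRP, was in lists 1 and 3 with 45 and 40, and the 5S rRNA pseudogene RNA5SP202 in lists 1 and 2 with 48 and 30. Of the other polymerase III transcripts looked for, RN7SK, RN7SL1, RN7SL2, RPPH1, VTRNA2-1 and the RNU6 genes had no locus in any list.

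**Figure D5:**
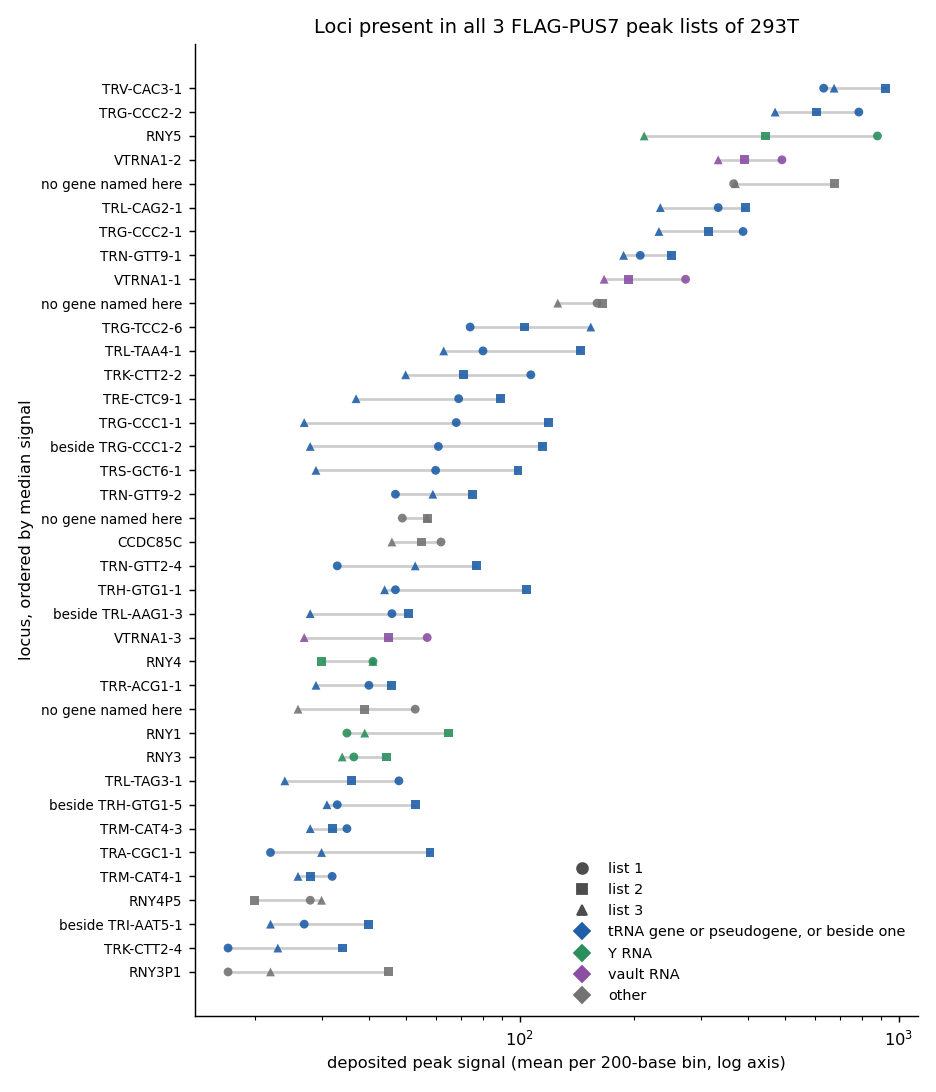
Deposited signal (x axis, mean per 200-base bin, log scale) of the 38 loci present in all 3 lists, 1 marker per list and 1 line per locus, coloured by the kind of gene. TRV-CAC3-1 has the highest median signal at 675.5, and RNY5 spans 213 to 879.

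Few other named genes recurred. The spliceosomal RNA genes RNU4-1, with signals of 92 and 49, RNU5B-1, with 67 and 19, and RNU6ATAC, with 29 and 27, were in the first and second lists. The pseudogene RNU6ATAC2P was there with 20 and 19. The other spliceosomal RNA genes were in the first list only, RNU2-2 with 60, RNU4-2 with 47.5, RNU5A-1 with 47, RNU5F-1 with 38, RNU5E-1 with 18 and RNU11 with 13. No list held a locus at RNU1 genes, RNU12 or the nucleolar U3 genes. CCDC85C (peak chr14:99583001-99583200, plus strand) was the only protein-coding gene whose position held a locus in all 3 lists, with signals of 62, 55 and 46. Recurring in lists 1 and 2 were MYOCOS with 28 and 120, C19orf18 with 20 and 25, FOXN3 with 16 and 16, CD33 with 12 and 14, and CYTH3 with 10 and 16. All of these but MYOCOS lay below 30 in both lists. The long noncoding RNA gene DNAJC27-AS1 had 13 and 28, and the mitochondrial ribosomal RNA region around RNR1, TRNV and RNR2 had 34.8 and 22. The bins do not show where in a gene the reads lay. Since strands of peak and gene were not compared, reads at these genes may come from the opposite strand. Whether the RNAs of the named genes were bound was not tested.

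tRNA genes with a recurring peak were also seen in the mock pull-down. Peaks lay at genes of 16 of the 22 isotypes with gene rows. Of all 408 gene rows, 50, or 12.3%, had a peak. The count was higher than this share for Asn, with 6 of 15, and Met, with 3 of 10, close to it for Val, with 4 of 27, and lower for Cys, with 1 of 29, and Ala, with 2 of 31. The lists are marked as made without tRNA, and what was removed is unstated. These counts, and those of rows with and without a peak below, therefore do not compare binding. Each of the 18 gene rows with a peak in all 3 lists was in at least 1 knockout library. All 18 were also detected in every FLAG-PUS7 library, which was nearly fixed in advance, since the peaks come from the same libraries. In the knockout libraries, 94.4%, 61.1% and 38.9% of these 18 rows were detected, against 54.2%, 32.6% and 30.4% of all gene rows. Of the 344 gene rows with no peak at or beside them, 41.6% were in no knockout library, against 20% of the 50 with a peak in any list. Rows with a peak lay mostly in width classes 3 and 4, with 24 and 17 of the 50. Within class 3, 16.7% of 24 rows with a peak and 17.97% of 128 rows without one were in no knockout library. Within class 4 these shares were 0% of 17 and 4.92% of 61. Within a width class, the shares of rows with and without a peak thus lay close together.

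For single genes, TRV-CAC3-1, with the highest median signal over the lists, was in the first knockout library alone. TRG-CCC2-2 and TRL-CAG2-1 were in the first and second knockout libraries, and TRG-CCC2-1 in all 3. Among the printed genes, TRI-AAT8-1, without the motif, had a peak in lists 1 and 2, with signals of 21 and 18, and was in 2 knockout libraries. TRT-TGT6-1 lay beside a locus with signals of 10 and 16 in these lists and was in 0 knockout libraries. TRA-AGC2-2, with the motif at bases 6 to 10, had no peak at or beside it.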

How the data were processed

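Members, lists and tests were chosen with earlier results of these data known. Per the submitters' processing notes, Bowtie, SAMtools, bedtools and the build hg38 were used by the authors. The sources used here do not give the peak caller. The tRNA tables the authors deposited hold whole numbers without gaps, 335 to 353 levels in FLAG-PUS7 and 22 to 41 in knockout libraries, which is the form of level codes of text and not a count. The lowest run of levels, by the width class of each row, was read as not detected. Of 248 values shared by several rows, 0 mixed width classes. The coding rule was tested on simulated data only, which cannot show that the deposited tables follow it. The peak lists the authors deposited give per bin a signal, a p-value and the natural log of a second count plus 1, used as deposited.

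Libraries were compared by exact permutation tests over the 20 assignments (Python 3.11.15, numpy 2.4.6, pandas 2.3.3, scipy 1.17.1). The exact test of 3 against 3 libraries gives p = 0.1 at the lowest, and depth is unknown, so that no interval on a share of reads is given. Named families were the 10 with the largest and the 10 with the smallest difference among those of at least 4 rows. Also named were the gene rows missed by FLAG-PUS7, the pseudogene rows found in all FLAG-PUS7 libraries, the rows found in a knockout library but not in all FLAG-PUS7 libraries, the 10 highest recurring loci and every locus at a gene other than a tRNA gene in at least 2 lists. Other names were chosen after their values were seen. Isodecoders were added as a unit after the data were seen. Sequences for most tRNA genes were not used here. The H9 libraries were not used, apart from 1 H9 knockout table that gave the width classes.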

Additional observations from a re-analysis of the deposited data

How the results depend on the processing

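Leaving out 1 library at a time, the difference in rows ranged from 283.2 to 332.7 and that in gene rows from 54.0 to 65.9 points (exact permutation p = 0.2 each, the smallest possible then). The families without overlap ranged from 46 to 52, the rows in all FLAG-PUS7 and no knockout libraries from 178 to 248, both highest without the first knockout library, and the loci in all peak lists from 38 to 77, highest without the third FLAG-PUS7 list. Counting isodecoders in place of rows, chosen after seeing the data, gave 116 instead of 177, since fewer units were counted, and a difference of 181.7 (exact permutation p = 0.1). Stricter reading of levels, gene rows only, and leaving out nm, nmt, undetermined and suppressor rows kept each count within 1.5 times its value, with 38 to 44 families. Peaks at p of at most 0.001 left 30 recurring loci. With the replicate number as a block the differences were 300.7 rows and 58.3 points (exact permutation p = 0.25, the smallest possible). Whether the replicate numbers pair the libraries is not known. Correlations of same-numbered deviations were -0.024, 0.037 and -0.006. They could hardly show a pairing, since of 631 rows 441 were in all 3 FLAG-PUS7 libraries and 133 in none. Of 219 values for lists and named families under these settings, 214 stayed within 1 SD, 5 moved and 0 reversed. Leaving out 1 of 3 libraries cannot shift a group mean by 1 SD of that group, so that those values could not move. All 5 moves came with gene rows only, for Tyr, Asp-GTC, Cys-GCA, Pro-AGG and Trp-CCA.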
